A study of Homo sapiens with 6 samples.

Results

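MMP1 and MMP13, 2 of 14884 genes measured here, encode interstitial collagenases. They were chosen by measured values: both had lower signals in cells given siRNA against CSRP2 than in cells given control siRNA, so that difference is described below without a test. Each gene had 1 probe set on the array (16743764 for MMP13, 16743721 for MMP1), so no choice between probe sets was needed.

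Hs578T is an established line of human breast carcinoma cells with a mesenchymal look. Its cells were plated at 150000 per well and transfected a day later by lipid reagent with a non-targeting siRNA (siControl, 3 arrays) or with CSRP2 siRNA (siCSRP2, 3 arrays). After 24 h, 100000 cells per well went to a fresh plate, and total RNA was taken 48 h later and hybridised to Affymetrix HuGene 2.0 arrays, where each value is a log2 signal. The medium, DMEM, held 10% serum and insulin at 0.01 mg/ml in both groups. The labels do not say whether replicates were separate cultures, so p-values cover only the spread among the arrays, which may be technical. All data come from 1 cell line, and the siRNA sequences were not used here.

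Collagenases are secreted zinc proteases that cut the triple helix of fibrillar collagen, which most proteases cannot open. MMP1 acts on collagens of skin, stroma and bone, and MMP13, prominent in cartilage and growing bone, prefers cartilage collagen. Cells make both as inactive precursors with a propeptide that other proteases remove, and TIMP proteins block the active enzymes. Transcription of both genes responds to cytokines and growth factors through MAP kinases and AP-1 dimers of FOS and JUN proteins, with ETS and, for MMP13, RUNX factors. CSRP2 is a LIM domain protein that bundles actin and has been tied to the protrusions with which tumour cells degrade matrix.

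The arrays did not form tight groups. The leading principal component held 63.2% of the variance, and on it the siCSRP2 arrays lay at 14.01 to 30.6, siControl 1 and siControl 2 near -31.5 and -31.2, and siControl 3 between the groups at -2.05. CSRP2 itself was at 3.69, 4.01 and 4.35 on siControl 1, 2 and 3 and at 3.25, 3.76 and 4.26 on siCSRP2 1, 2 and 3. It was lower in siCSRP2 between arrays of equal number in each of 3 pairs, but the groups overlapped and the difference of -0.26 passed neither without the replicate number as a block (limma, adjusted p = 0.583) nor with it (0.188), so the target gives no firm check of the labels. Of the 10 markers listed for a mesenchymal breast line 7 were measured, and all of them, VIM, CD44, AXL, FN1, ZEB1, SNAI2 and S100A4, were above the 95th percentile of a set of hair genes described below. Of 10 measured epithelial or luminal markers KRT8, KRT18, GATA3 and CLDN3 were above it, and ESR1, PGR, EPCAM, KRT19, FOXA1 and CLDN4 were not. Of the 7 mesenchymal markers 5 fell in siCSRP2 (VIM, AXL, FN1, SNAI2 and S100A4, limma adjusted p under 0.05), as 6.54% of all genes did. CD44 (adjusted p = 0.137) and ZEB1 (0.72) did not pass. Of the 10 epithelial or luminal markers 0 passed, beside 7.34% of all genes. KRT18 was lower on every siCSRP2 array than on any siControl array, and KRT19 and CLDN3 were higher, as 16.2% and 11.5% of all genes were. KRT18 differed by -0.74 (limma adjusted p = 0.0635) and fell with the replicate block (0.00746), as 13.1% of all genes did. CLDN3 differed by 0.33 (limma adjusted p = 0.0919, and 0.0857 with the block). In bulk RNA fewer cells of a kind and less RNA per cell cannot be told apart. The part of these falls in the results below was not tested.

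MMP13 was bright in control cells and dim after CSRP2 siRNA. Its log2 signal was 5.71 on siControl 1, 6.40 on siControl 2 and 7.05 on siControl 3. On siCSRP2 1, 2 and 3 it was 2.49, 2.73 and 3.17. Every siCSRP2 array lay below every siControl array, and the highest siCSRP2 value was 2.55 below the lowest siControl value. The group means were 6.39 ± 0.67 and 2.80 ± 0.34 (SD, n = 3), a log2 difference of -3.59 (SE 0.31), or 12.1-fold lower. It was the lowest difference of all 14884 genes. The next were the protocadherin gene PCDH18 (-3.28) and the chemokine gene CCL2 (-2.66).

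MMP1 was lower on siCSRP2 arrays as well. Its log2 signal was 3.67, 4.35 and 5.07 on siControl 1, 2 and 3, and 2.70, 2.94 and 3.14 on siCSRP2 1, 2 and 3. The groups did not overlap here either, but the space between them was narrow, 0.52 from the highest siCSRP2 to the lowest siControl array. The means were 4.36 ± 0.70 and 2.93 ± 0.22 (SD, n = 3), a log2 difference of -1.43 (SE 0.31), or 2.7-fold lower. MMP1 ranked 65 among all genes from the lowest difference up. Over all genes 6.54% fell, here and below meaning lower in siCSRP2 at a limma adjusted p under 0.05, and 16.2% had siCSRP2 arrays that all lay below the siControl arrays. MMP1 and MMP13 are counted in both shares, and nothing is read from that, since the same contrast chose them.

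After CSRP2 siRNA both collagenases lay at the level of genes that a breast line would not be thought to use. Hair keratin-associated proteins, the KRTAP family, are made in the hair shaft, and 84 of their genes were measured. Their median log2 signal was 2.46 over the siControl means and 2.58 over the siCSRP2 means, with 95th percentiles of 3.45 and 3.58. On siControl arrays MMP13 was above all 84 except 1 on siControl 1, and MMP1 was above all except 3, 1 and 1 on siControl 1, 2 and 3. On siCSRP2 1, 2 and 3 the KRTAP genes above MMP13 numbered 47, 37 and 14, and those above MMP1 numbered 35, 23 and 15. Probe sets differ in their own background, so these counts place the signals roughly. No detection calls were used, and at such a level a fold change can understate the fall of a transcript. The siControl level then limits how large a difference can be, so the differences of the 2 genes are not ranked against each other. None of the 84 KRTAP genes passed the limma test, which 7.34% of all genes did, and their median difference was 0.12. At an unadjusted p under 0.05, 4 of them were higher. The share of all genes at that unadjusted cutoff must be at least 7.34% and was not counted. Nothing is therefore read from such counts here or below.

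**Figure D1:**
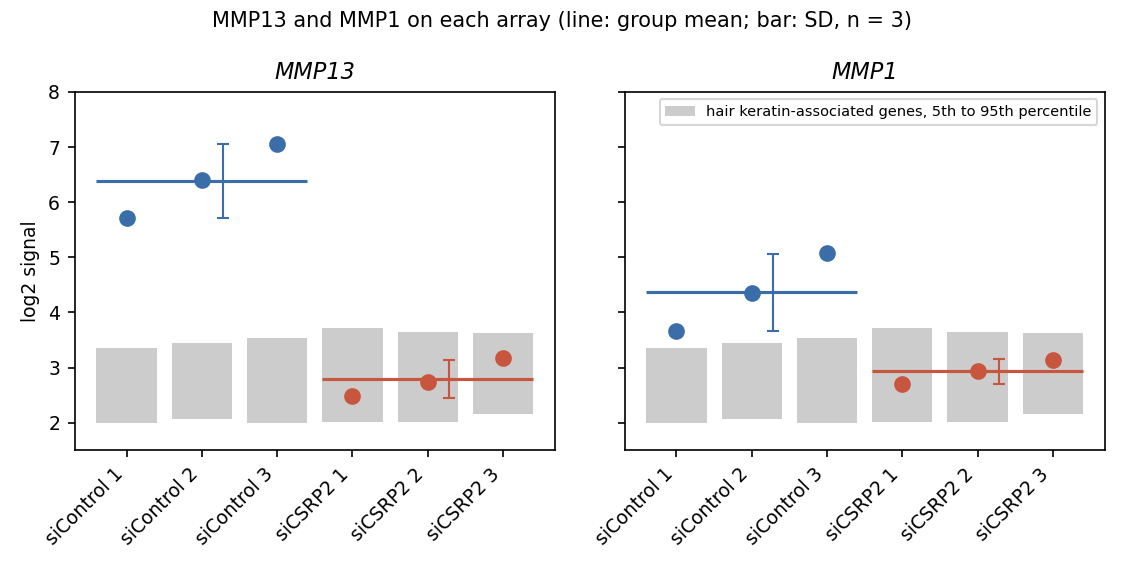
Log2 signal of MMP13 and MMP1 (vertical axis) on each of the 6 arrays, with the group mean as a line and the SD of 3 arrays as a bar; grey blocks span the 5th to 95th percentile of 84 KRTAP genes on the same array. All siControl points lie above the grey blocks, and all siCSRP2 points, from 2.49 to 3.17, lie inside them.

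The collagenases varied together within the groups. Among the controls MMP13 lay -0.67, 0.01 and 0.66 from the group mean on siControl 1, 2 and 3. MMP1 lay -0.70, -0.01 and 0.71 from its own, so siControl 3 was the highest and siControl 1 the lowest control for both. Among siCSRP2 arrays MMP13 lay -0.31, -0.06 and 0.37 from the mean and MMP1 -0.23, 0.01 and 0.21, with siCSRP2 3 the highest and siCSRP2 1 the lowest for both. Array 3 was thus the highest and array 1 the lowest in each group. CSRP2, JUNB, PTGS2 and IL11 had the same order in both groups, so it is not particular to the pair. The share of all genes with that order was not counted. Between arrays of equal number MMP13 was 9.36-, 12.7- and 14.7-fold lower in siCSRP2 for numbers 1, 2 and 3. MMP1 was 1.95-, 2.65- and 3.81-fold lower in the same pairs. With the replicate number as a block in the fit, the SE of the difference was 0.14 for MMP13 and 0.17 for MMP1.

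The high values on siControl 3 set both genes beside few others. That array lay nearest to the siCSRP2 arrays over all genes, and of the 974 genes that fell, a set that holds MMP1 and MMP13 by the contrast that chose them, 784 (80.5%) had their lowest control value on it and 77 (7.91%) their highest. Among the 258 genes that fell by at least 1 on the log2 scale, it was the highest control for 12, MMP1 and MMP13 included. Relative to the mean of siControl 1 and 2, siControl 3 was 1.06 higher for MMP1 and 0.99 higher for MMP13. These were the highest such values among the 974 genes, followed by SAMTOR at 0.51, while the median of the 974 was -0.32. The fit that called the 974 used siControl 3 as well, so a place among them is a description only. Over all 14884 genes MMP1 ranked 58 and MMP13 ranked 76 by this value. Without siControl 3 the log2 difference was -3.26 (SE 0.24) for MMP13 and -1.08 (SE 0.21) for MMP1, and with each other array left out in turn it lay between -3.93 and -3.44 and between -1.78 and -1.32.

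**Figure D2:**
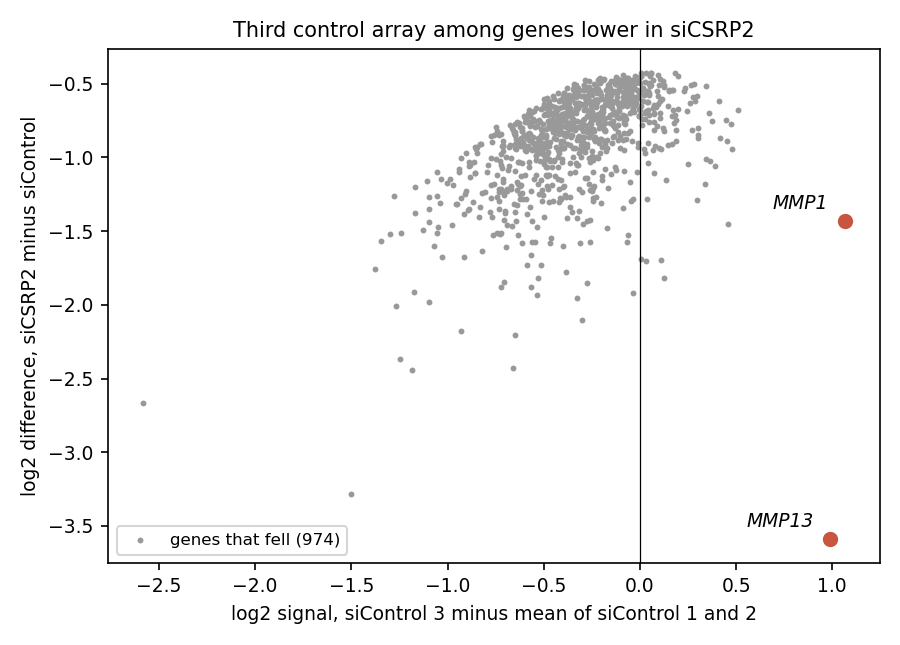
Each point is 1 of the 974 genes that fell; the horizontal axis is the log2 signal on siControl 3 minus the mean of siControl 1 and 2, the vertical axis the log2 difference between siCSRP2 and siControl, which shares those control arrays. Most points lie left of 0, while MMP1 (1.06) and MMP13 (0.99) lie farthest to the right.

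The other measured matrix metalloproteinases differed by -0.41 to 0.42 between the groups, and most of them were dim on all arrays. Of 23 family members listed, 19 were measured, and none of the 17 besides MMP1 and MMP13 passed the limma test at an adjusted p of 0.05, with or without the replicate block. Over all genes 6.54% fell and 0.8% rose, so a count of 0 among 17 is near the background. For the 12 at the level of the KRTAP genes the dim signal limited how large a fall could be seen. At an unadjusted p under 0.05, MMP25 was lower and MMP8 and MMP24 higher, with no share of all genes beside them. The median difference of the 17 was 0.06, beside 0.02 over all genes. The differences ran from -0.41 for MMP25, a membrane-anchored protease of leukocytes (SE 0.14, adjusted p = 0.119), to 0.42 for MMP24, a membrane-type protease (SE 0.17, adjusted p = 0.169). MMP25 was 3.23, 3.77 and 3.54 on siControl arrays and 3.11, 3.12 and 3.06 on siCSRP2 arrays, so its groups did not overlap. MMP24 was 4.43, 4.44 and 4.34 against 4.57, 4.67 and 5.21, higher on every siCSRP2 array.

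MMP8, the third classical collagenase, was dim on every array. It measured 2.31, 2.44 and 2.49 on siControl and 2.58, 2.70 and 2.74 on siCSRP2 arrays, a difference of 0.26 (SE 0.11, limma adjusted p = 0.188) in the opposite direction to MMP1 and MMP13. MMP14, the membrane protease that cuts collagen at the cell surface and helps to activate MMP13, was 5.53 ± 0.17 and 5.52 ± 0.21 (SD, n = 3), a difference of -0.01 (95% interval -0.34 to 0.31). MMP16, another membrane-type protease, differed by 0.07 (-0.28 to 0.42) and MMP19 by -0.32 (-0.71 to 0.07). Only MMP14, MMP16, MMP19, MMP24 and MMP25 of these 17 genes had a group mean above the 95th percentile of the KRTAP genes. The members below that level were MMP8, MMP10, MMP11, MMP12, MMP15, MMP17, MMP20, MMP21, MMP23B, MMP26, MMP27 and MMP28, with differences from -0.02 (MMP15) to 0.27 (MMP20). MMP2, MMP3, MMP7 and MMP9 were not analysed here.

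**Figure D3:**
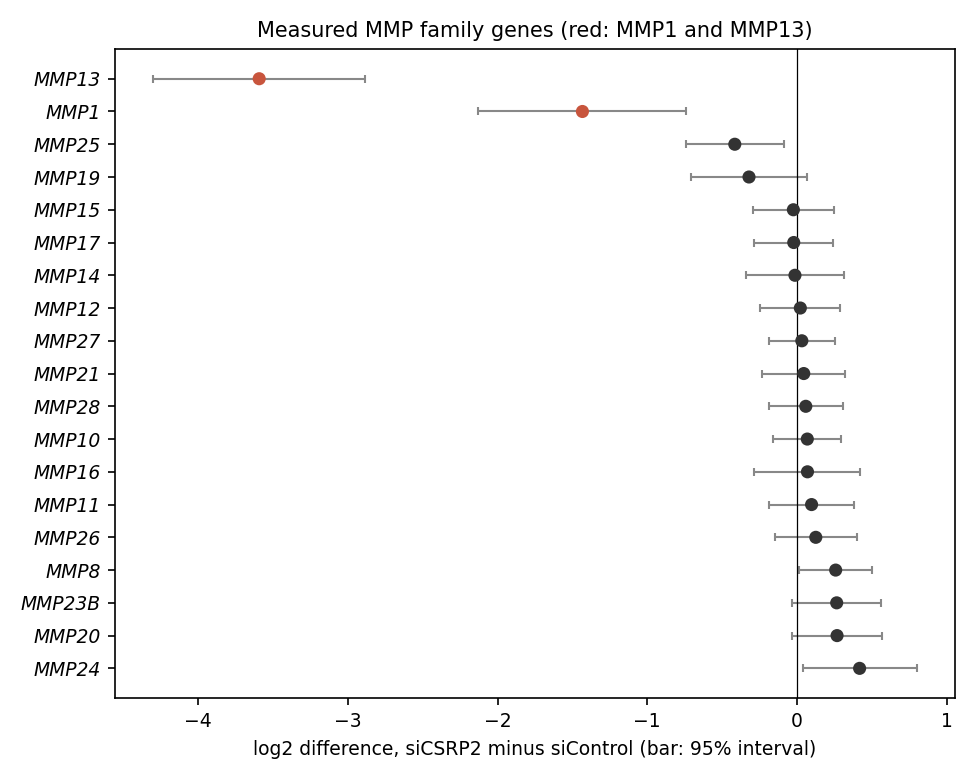
Log2 difference between siCSRP2 and siControl (horizontal axis, bar: 95% interval from the limma fit) for the 19 measured MMP family genes. MMP13 (-3.59) and MMP1 (-1.43), in red, lie apart on the left, and the other 17 lie between -0.41 and 0.42.

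MMP1 and MMP13 lie in a cluster of MMP genes on chromosome 11, in the RefSeq gene order MMP7, MMP20, MMP27, MMP8, MMP10, MMP1, MMP3, MMP12, MMP13. The 5 other measured genes of the cluster differed by 0.02 (MMP12) to 0.27 (MMP20), and none passed the limma test (MMP8 alone was higher at an unadjusted p under 0.05) or lay above the 95th percentile of the KRTAP genes. MMP12, the macrophage elastase gene next to MMP13, was 2.15 ± 0.11 in siControl and 2.17 ± 0.13 in siCSRP2 cells (SD, n = 3). MMP10, a stromelysin gene next to MMP1, was 2.62 ± 0.03 and 2.69 ± 0.05. The pseudogene WTAPP1, which overlaps MMP1 in RefSeq, was 2.61 ± 0.11 and 2.47 ± 0.06 (adjusted p = 0.47). Beyond the cluster, the nearest measured protein-coding genes differed by -0.25 (TMEM123), -0.19 (BIRC2) and -0.50 (YAP1) on the side of MMP7 and by 0.11 (PDGFD) on the side of MMP13. None of these 4 passed the limma test, though YAP1, a transcriptional coactivator of the Hippo pathway, fell with the replicate block (adjusted p = 0.0247, and 0.0684 without it).

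Outside the pair, 99 of 152 listed genes of collagenase biology were measured. Of these 6 fell (RECK, DCN, FN1, F2R, ETV1 and EPAS1), none rose and 93 did not pass, which is 6.06% called beside 7.34% of all genes, with a median difference of 0.05 beside 0.02. With the replicate block, 12 fell and 8 rose, where 13.1% of all genes fell and 2.67% rose. Of the 99, 16 were lower and 11 higher on every siCSRP2 array than on any siControl array, where 16.2% and 11.5% of all genes were. The count of 6 depended on which array was left out. Leaving out siControl 1, 2 or 3 gave 2, 0 or 21 genes, where 157, 91 or 2620 of all genes passed. Leaving out siCSRP2 1, 2 or 3 gave 6, 1 or 1, where 877, 194 or 285 of all genes passed. With all 6 arrays 1093 of all genes passed. Over all genes 89.1% of calls were falls as deposited, 76.0% after quantile normalization, 77.7% after cyclic loess and 94.5% with array medians centred.

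Of 8 measured inhibitors 1 fell and none rose, beside 6.54% and 0.8% of all genes. TIMP1, TIMP2 and TIMP3, which block active MMPs, differed by 0.13 (95% interval -0.11 to 0.36), -0.12 (-0.51 to 0.26) and -0.13 (-0.39 to 0.14). TIMP1 was 6.71, 6.83 and 6.90 on siControl arrays and 6.95, 6.95 and 6.94 on siCSRP2 arrays. RECK, a membrane-anchored inhibitor of MMPs, was the one that fell. It measured 4.43, 4.18 and 4.28 on siControl arrays and 3.83, 3.46 and 3.81 on siCSRP2 arrays, a difference of -0.59 (SE 0.14, limma adjusted p = 0.0368). RECK did not pass after quantile normalization (adjusted p = 0.105) or cyclic loess (0.0998), and passed in 2 of the 6 fits that left out 1 array.

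None of 11 measured proteases that process MMP precursors passed the limma test without the replicate block, beside 7.34% of all genes. CTSL alone was lower at an unadjusted p under 0.05, a cutoff at which the share of all genes was not counted. The proprotein convertase FURIN, which activates membrane-type MMPs, differed by -0.27, and the cathepsins CTSB and CTSK by -0.22 and 0.09. CTSL, a lysosomal cathepsin, measured 6.88 ± 0.19 and 6.12 ± 0.39 (SD, n = 3), a difference of -0.77 (limma adjusted p = 0.0511). It fell with the replicate block (adjusted p = 0.014) and with array medians centred (0.0337). CTSL did not pass after quantile normalization (adjusted p = 0.107) or cyclic loess (0.104), and passed in 2 of the 6 fits that left out 1 array. PLAU and PLAUR of the plasminogen activator system were not analysed here.

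Among matrix substrates DCN and FN1 fell, 2 of 6 measured, beside 6.54% of all genes. DCN, decorin, a proteoglycan that binds collagen fibrils, was 5.32, 5.41 and 5.03 on siControl and 3.97, 4.14 and 4.37 on siCSRP2 arrays, a difference of -1.09 (SE 0.15, limma adjusted p = 0.00826), and it passed in 5 of the 6 fits that left out 1 array. FN1, fibronectin, differed by -0.59 (SE 0.13, adjusted p = 0.0299). It passed in 1 of the 6 fits that left out 1 array, with differences between -0.67 and -0.51. DCN and FN1 passed after quantile normalization (limma adjusted p = 0.0162 and 0.035) and after cyclic loess (0.0134 and 0.0296). The fibrillar collagens COL1A1, COL1A2 and COL3A1 were not analysed here.

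F2R was the 1 of 7 measured receptors that fell, beside 6.54% of all genes. It encodes the thrombin receptor PAR1, which MMP1 can also cleave and activate. F2R measured 4.95, 4.81 and 4.40 on siControl arrays and 3.87, 3.68 and 3.58 on siCSRP2 arrays, with no overlap, a difference of -1.01 or 2.02-fold lower (SE 0.16, limma adjusted p = 0.0118). It passed in 2 of the 6 fits that left out 1 array, with differences between -1.17 and -0.90. It also passed after quantile normalization (adjusted p = 0.0173) and cyclic loess (0.0189). The collagen receptors DDR1 and DDR2 differed by -0.20 and -0.22, BSG, an inducer of MMPs, by -0.11, and LRP1, which clears MMP13 from outside the cell, by 0.01. None of these 4 passed.

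None of 18 measured genes for signals that induce or restrain collagenases passed the limma test without the replicate block, beside 7.34% of all genes. Their median difference was 0.16. At an unadjusted p under 0.05, 3 were higher and 1 was lower, with no share of all genes at that cutoff to set beside them. PTGS2, the prostaglandin synthase COX-2, was 7.05, 7.42 and 8.90 on siControl arrays and 8.57, 9.53 and 9.90 on siCSRP2 arrays, a difference of 1.54 (SE 0.48, adjusted p = 0.0906). The cytokine IL11 was 4.21, 4.34 and 5.62 against 5.15, 5.98 and 6.61, a difference of 1.19 (SE 0.43, adjusted p = 0.133). In both genes siControl 3 lay inside the range of the siCSRP2 arrays. Over the 18 genes siControl 3 was the highest control in 14, where it was in 35.0% of all genes. PTGS2, IL11 and TNF rose with the replicate block (adjusted p = 0.00241, 0.00286 and 0.026), and IL17RA, a receptor for interleukin 17, fell (adjusted p = 0.0359). With the block 2.67% of all genes rose and 13.1% fell. IL1A, IL1B, IL1R1 and IL6 were not analysed here.

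None of the 7 measured MAP kinase genes passed the limma test without the replicate block either, beside 7.34% of all genes. At an unadjusted p under 0.05, 2 were higher and 3 lower, with no share of all genes at that cutoff to set beside them. With the replicate block, where 13.1% of all genes fell and 2.67% rose, MAP2K1, which activates ERK, rose (0.75, limma adjusted p = 0.0208). MAP2K6, which activates p38, fell (-0.82, adjusted p = 0.0217), as did the ERK and JNK genes MAPK3 (-0.47, 0.0412) and MAPK9 (-0.50, 0.0207), the last also with array medians centred (-0.58, 0.0304). MAPK9 did not pass after quantile normalization (limma adjusted p = 0.173) or cyclic loess (0.137). MAP2K1, MAP2K6, MAPK3 and MAPK9 each passed in 1 of the 6 fits that left out 1 array, the fit without siControl 3. MAP2K6 was 3.77 and 3.56 on siControl 1 and 2 but 2.62 on siControl 3, within the siCSRP2 range of 2.41 to 2.63. Neither group mean of MAP2K6 was above the 95th percentile of the KRTAP genes. MAP2K1 was 5.69 and 5.58 on siControl 1 and 2 but 6.65 on siControl 3, within the siCSRP2 range of 6.56 to 6.90.

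Without the replicate block the AP-1 genes did not pass the test in either direction, and most had somewhat higher means in siCSRP2. None of the 9 measured, FOS, FOSB, FOSL1, FOSL2, JUN, JUNB, JUND, ATF2 and ATF3, was called, beside 7.34% of all genes. The 9 differences ran from -0.01 (ATF2) to 0.73 (ATF3). FOSB, JUN and ATF3 were higher at an unadjusted p under 0.05, with no share of all genes at that cutoff to set beside them. JUN was 7.45, 7.57 and 8.49 on siControl arrays and 8.27, 8.45 and 8.70 on siCSRP2 arrays (difference 0.64, SE 0.26, adjusted p = 0.173). FOSL1, the FRA-1 subunit, was 6.15, 6.78 and 7.65 against 7.10, 7.65 and 6.87 (0.35, SE 0.35, adjusted p = 0.588). With siControl 3 left out the differences were 0.97 for JUN (adjusted p = 0.00291), 0.82 for JUNB (0.0214), 1.11 for ATF3 (0.00142) and 0.74 for FOSL1 (0.0704). In that fit 2620 of 14884 genes passed, beside 1093 with all 6 arrays. It was the only one of the 6 fits with 1 array left out in which JUN, JUNB or ATF3 passed. Over those fits the difference was as low as 0.45 for JUN, 0.27 for JUNB and 0.48 for ATF3, and the adjusted p as high as 0.458, 0.643 and 0.434. JUN, JUNB, FOSB and ATF3 rose with the replicate block (adjusted p = 0.0241, 0.0393, 0.0346 and 0.0337), as did 2.67% of all genes. Among the control arrays, siControl 3 was the highest for all 9 of these genes, as it was for 35.0% of all genes, MMP1 and MMP13 included. Of the 9 AP-1 means 8 were higher in siCSRP2, where 53.1% of all genes were. The exception was ATF2, which was higher too after quantile normalization or cyclic loess, and without siControl 1 the FOSL1 mean was no longer the higher.

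Of 26 measured transcription regulators, the AP-1 genes included, 2 fell (ETV1 and EPAS1) and none rose, beside 6.54% and 0.8% of all genes. ETV1, an ETS factor, measured 5.16, 5.10 and 4.67 on siControl and 4.41, 4.09 and 4.20 on siCSRP2 arrays, a difference of -0.74 (SE 0.16, limma adjusted p = 0.028). The call was lost after quantile normalization (-0.57, adjusted p = 0.0635) and cyclic loess (-0.59, 0.0578), and ETV1 passed in 2 of the 6 fits that left out 1 array (adjusted p up to 0.131). EPAS1, the hypoxia factor HIF-2 alpha, measured 5.42, 5.82 and 5.81 against 4.87, 5.03 and 4.72, a difference of -0.81 (SE 0.15, adjusted p = 0.0172). EPAS1 passed in 3 of those 6 fits (adjusted p up to 0.0924), and after quantile normalization (0.0339) and cyclic loess (0.0301). STAT3 differed by -0.50 and fell with the replicate block (adjusted p = 0.0275) and with array medians centred (-0.59, 0.0263). STAT3 did not pass after quantile normalization (limma adjusted p = 0.0691) or cyclic loess (0.0779). It passed in 0 of the 6 fits that left out 1 array. RUNX2, the bone factor that drives MMP13, differed by -0.29 (95% interval -0.59 to 0.02), RUNX1 by 0.03, ETS1 by 0.02 and ETV4 by 0.22, and none of these passed. CEBPB was not analysed here.

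**Figure D4:**
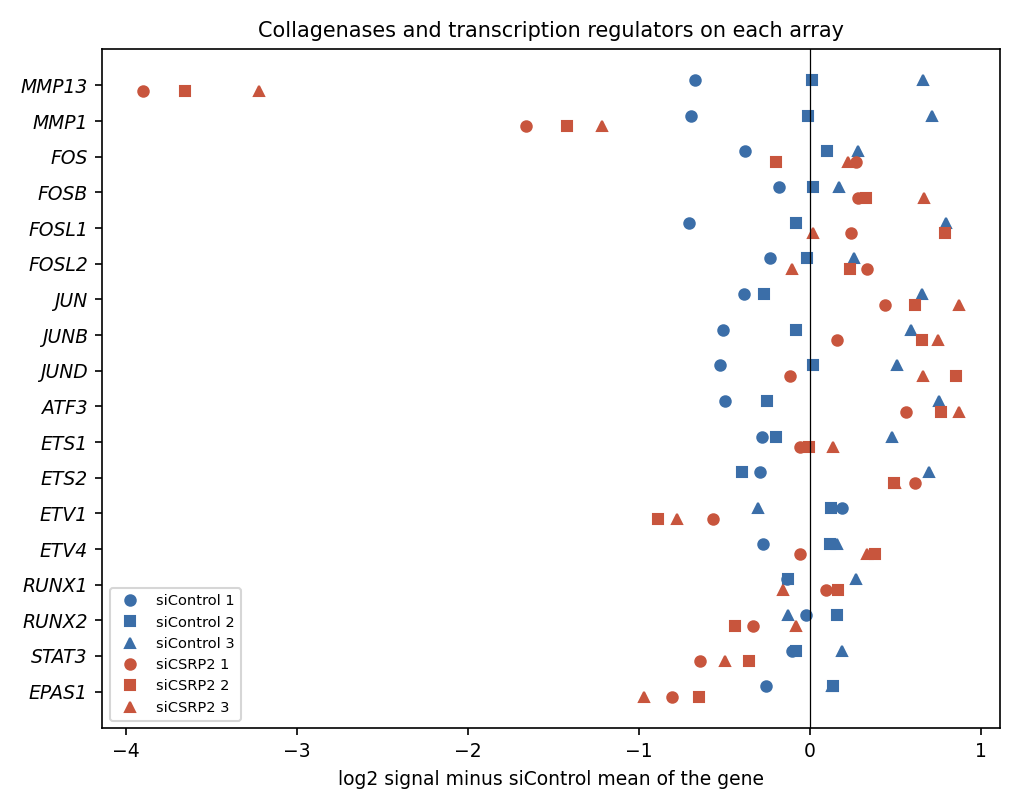
Log2 signal of each gene minus its own siControl mean (horizontal axis) on every array, blue for siControl and red for siCSRP2, with the replicate number as the marker shape. MMP13 and MMP1 lie far left on siCSRP2 arrays, while JUN and ATF3 lie right of 0 on siCSRP2 arrays and on siControl 3.

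**Figure D5:**
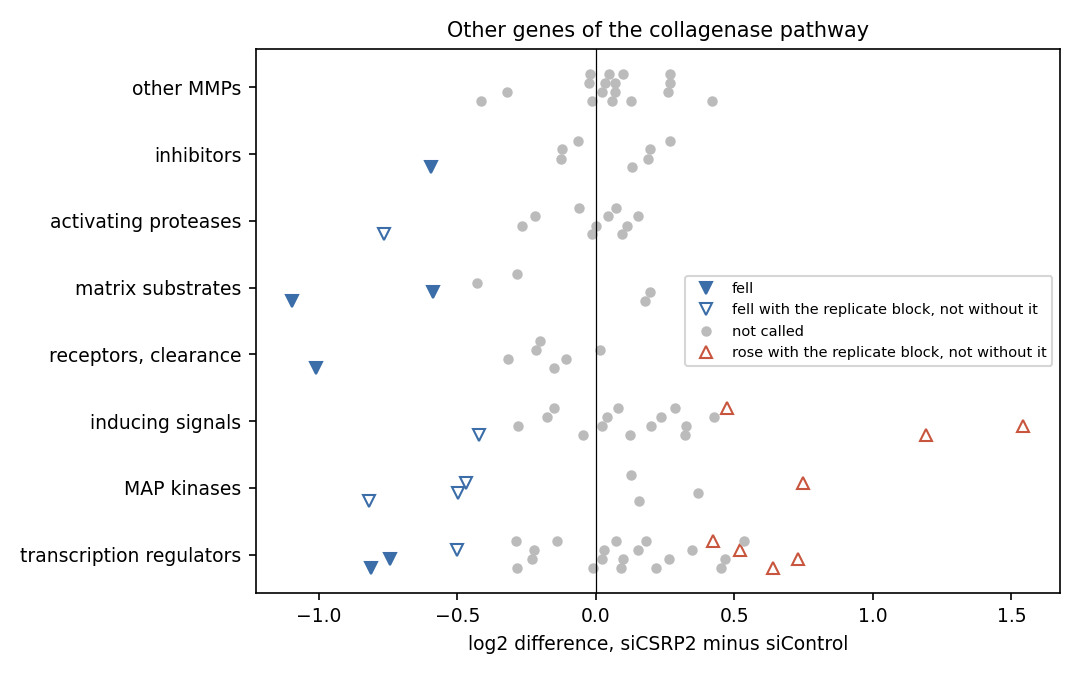
Log2 difference between siCSRP2 and siControl (horizontal axis) of the 99 measured genes by role, each point 1 gene (MMP14 stands in both the MMP and the activator rows). Filled triangles mark the 6 genes that fell, open triangles those called with the replicate block and not in the same fit without it, and grey points the rest.

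The genes most like the pair were sought by Pearson's r of log2 signal over the 6 arrays, among 1555 protein-coding genes above the median level that ranged over at least 1 log2 unit. The arrays form 2 groups, so r here mostly follows the gap between them, and it is a description. Closest to MMP13 were the zinc finger gene ZNF614 (r = 0.99), the CaM kinase II inhibitor CAMK2N1, the GTPase-activating protein ARHGAP35, the transcription factor SOX4 and the membrane glycoprotein TPBG (all r = 0.98). Closest to MMP1 were SRGAP1, also a GTPase-activating protein, and the glycolytic enzyme PGK1 (both r = 0.97), then SAMTOR (0.97), IGFBP5, which binds insulin-like growth factors, and SOX4 (both 0.96). MMP13 and MMP1 had r = 0.95 with each other, which placed MMP13 at rank 6 for MMP1 and MMP1 at rank 21 for MMP13. SOX4 stood on both lists, with 5.08, 5.22 and 5.57 on siControl and 4.45, 4.42 and 4.39 on siCSRP2 arrays.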

How the data were processed

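Per the submitters' processing notes Partek was used, with no version or role named. The authors deposited log2 values, with base 2 inferred from their range of 1.26 to 13.4, 1 for each probe set on each array; how background, summarisation, scaling and genome build were handled is not given in the sources used here. Of 53617 probe sets, 16098 had 1 gene symbol in the platform table; all their gene identifiers matched RefSeq (GRCh38.p14), used for names and gene order only. The probe set with the highest mean stood for a gene, which gave 14884 genes, with no filter. limma 3.58.1 in R 4.3.3 compared the groups (group as the only term, two-sided, Benjamini-Hochberg adjustment over all genes, threshold 0.05), and the fit was tested on simulated data. The number of arrays limits the precision.

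The members and lists were chosen with earlier results of these data known. The genes named are the pair, all measured MMPs, a list of regulators and partners whatever their values, pathway genes past the threshold with or without the block, CSRP2, and the 5 genes most like each member. Other genes named, among them PCDH18, CCL2, WTAPP1, TMEM123, BIRC2, YAP1 and PDGFD, and the KRTAP genes (1 olfactory receptor gene, too few, was measured) were chosen after values were seen. Leukocyte and endothelial markers CD14, PECAM1 and VWF lay below the 95th percentile of the KRTAP genes, and the lysosomal CD68 above it.

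Deviations from group means correlated across genes at 0.30, 0.19 and 0.32 between same-numbered arrays and at -0.26 to 0.05 between others. All same-numbered values exceeded 0.1, which was taken as pairing, though the labels do not state it. The main fit left the pairing out, and the fit with the replicate block took it in. Alternatives were 3 scalings, the replicate block, probe set means, array weights, a trended robust fit, filters on dim genes and each array left out.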

Additional observations from a re-analysis of the deposited data

How the results depend on the processing

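The MMP13 difference lay between -3.93 and -3.26 and the MMP1 difference between -1.78 and -1.08 over the fits that left out 1 array, and no other alternative that gave them a value took either outside these ranges. The filters on dim genes were applied to counts of genes alone. The MMP13 difference was the lowest of all genes except with array weights (rank 2) and without siControl 3 (rank 3); MMP1 ranked from 17 (without siControl 1) to 428 (without siControl 3). Genes past the threshold numbered 1093 as reported, 2348 with the replicate block, 2924 with array weights, and 91 to 2620 with 1 array left out. Of the 99 pathway genes, 6 passed as reported, 20 with the replicate block, 22 with array weights, and 0 to 21 with 1 array left out; without siControl 2, where none passed, limma called 91 genes in all. No pathway gene that was called changed sign. The signals of MMP1 and MMP13 on siCSRP2 arrays were too near those of KRTAP genes to bound how far the transcripts fell.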
